A study of Homo sapiens with 6 samples.

Results

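The 10 long noncoding RNAs (lncRNAs) described here, MALAT1, NEAT1, H19, HOTAIR, GAS5, PVT1, TUG1, UCA1, MIAT and DSCAM-AS1, are well studied in cancer and were measured in BT474 cells that had been made to overexpress a variant of another lncRNA, NR2F1-AS1. Every probe whose gene name in the array files equals one of these names was taken, which gave 38 of 58201 non-control probes for 10 of 43317 gene names. BT474 is a breast cancer cell line with estrogen receptor and amplified HER2. RNA of 3 groups was hybridized to Agilent arrays, 2 arrays per group: Control cells that carried an empty pcDNA3.1 plasmid, BT474-Var1 cells that carried pcDNA3.1 with NR2F1-AS1 variant 1, and BT474-Var4 cells that carried pcDNA3.1 with NR2F1-AS1 variant 4. All groups were grown in the same medium, had been transfected by nucleofection and had come through antibiotic selection, and the study describes a loss of most cells in the 2 variant populations. The study's methods name pcDNA3.1/Hygro(+) as the backbone for variant 1 and pcDNA3.1-P2A-eGFP as that for variant 4, and the labels do not say which empty plasmid the Control cells of these arrays carried. Nothing says that the 2 arrays of a group came from separate cultures, so the p-values below measure only the spread between these arrays, which may be technical.

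LncRNAs are transcripts without a long reading frame that act as RNA. MALAT1 and NEAT1 stay in the nucleus, where MALAT1 lies in nuclear speckles and NEAT1 is the scaffold of paraspeckles, bodies that hold RNA-binding proteins. HOTAIR and H19 are tied to chromatin silencing and imprinting, GAS5 hosts small nucleolar RNAs (snoRNAs) in its introns, PVT1 is the neighbour of MYC, and DSCAM-AS1 is a lncRNA of luminal breast cancer under the control of the estrogen receptor.

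The probes that carry the main differences are single strands of 60 bases that match the transcript, and the sequences of most of them are given here as the array files hold them, 5′ to 3′, so that a reader can see which stretch of each RNA was measured. Capitals mark the 19 bases that the first and second NEAT1 probes share, and the AATAAA hexamer, the common polyadenylation signal, in a MALAT1 and a GAS5 probe. The hexamer was searched on both strands and stands in 7.85% of all 58201 probes and in 2 of the 31 member probes searched (those of PVT1 were not), and its reverse complement TTTATT stands in 3.6% of all probes and in 1 member probe.
UCA1 A_32_P200238: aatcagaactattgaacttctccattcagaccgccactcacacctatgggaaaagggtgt
UCA1 A_21_P0009781: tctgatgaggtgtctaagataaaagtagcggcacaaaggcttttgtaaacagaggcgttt
NEAT1 A_22_P00001342: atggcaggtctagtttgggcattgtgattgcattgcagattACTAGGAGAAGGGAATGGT
NEAT1 A_19_P00318409: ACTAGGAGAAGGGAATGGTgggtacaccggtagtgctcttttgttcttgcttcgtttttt
NEAT1 A_19_P00321332: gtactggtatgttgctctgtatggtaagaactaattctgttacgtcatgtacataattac
MALAT1 A_21_P0010982: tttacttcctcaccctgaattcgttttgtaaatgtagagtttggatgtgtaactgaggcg
MALAT1 A_22_P00014171: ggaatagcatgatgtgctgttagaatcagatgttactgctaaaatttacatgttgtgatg
MALAT1 A_19_P00325158: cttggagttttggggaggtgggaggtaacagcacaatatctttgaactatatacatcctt
MALAT1 A_22_P00024689: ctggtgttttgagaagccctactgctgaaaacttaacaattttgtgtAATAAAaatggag
GAS5 A_33_P3326285: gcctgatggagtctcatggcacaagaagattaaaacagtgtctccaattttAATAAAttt
H19 A_19_P00323082: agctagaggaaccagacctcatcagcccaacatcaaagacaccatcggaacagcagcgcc
H19 A_24_P52697: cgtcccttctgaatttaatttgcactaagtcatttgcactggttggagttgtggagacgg
DSCAM-AS1 A_22_P00011618: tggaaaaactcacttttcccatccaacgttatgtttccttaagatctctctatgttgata

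Levels are log2 intensities relative to the 75th percentile of the array, so that 0 is the 75th percentile, and they are compared between arrays for the same probe only. Between 47.6% and 57.5% of all probes were well above background per array, the mark that the scanner software sets on a spot that is brighter than its surroundings. Of the 38 member probes, 33 were well above background on all 6 arrays. The other 5 were all probes of MIAT, 4 of which were well above background on no array. All 11 markers of BT474 cells that were looked up had a probe above background on all 6 arrays. Of 11 markers of blood, endothelial and fibroblast cells, 5 had such a probe, COL1A2 and COL3A1 had none above background on any array, and their summed level, on a linear scale with the 75th percentile at 1, was 6.62 to 6.9 in Control, 6.56 to 6.6 in BT474-Var1 and 8.9 to 9.04 in BT474-Var4 cells. In BT474-Var4 cells the fibroblast genes COL1A1 (+1.03) and DCN (at least 7.11-fold, on 1 of its 2 probes) were higher than in Control. That DCN probe was well above background on the BT474-Var4 arrays only, and the other on no array. COL1A1 read higher on both BT474-Var1 arrays than on both Control arrays too. In BT474-Var1 cells 1 of the 7 tested markers was higher than in Control and 1 lower. The part of such genes in the results below was not tested. NR2F1-AS1, the transfected RNA, had 4 probes, of which 0 were well above background on both Control arrays, 3 on both BT474-Var1 arrays and 2 on both BT474-Var4 arrays. On neither array of the group were 1, 1 and 2 of them above background in the same order. The rest of the probes were thus above background on 1 of the 2 Control arrays. A single slide held all 6 arrays, with BT474-Var1 alone in its other row, so slide row and BT474-Var1 cannot be told apart.

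Tested were the 34 member probes that both arrays of any group measured well above background. In BT474-Var1 cells against Control, 17 of 34 probes passed an adjusted p of 0.05 with limma, 12 higher and 5 lower, where 34.4% of all 31858 tested probes passed, 14.1% higher and 20.3% lower. At a change of 2-fold or more, 3 member probes passed beside 3.94% of all probes. In BT474-Var4 cells against Control, 11 of 34 passed, 5 higher and 6 lower, beside 24.2% of all probes, 9.87% higher and 14.3% lower. There 2 member probes passed at 2-fold beside 3.17%. Between the variants, 18 of 34 differed, 8 higher and 10 lower in BT474-Var4 cells, beside 41.2% of all probes, 20.4% higher and 20.8% lower, and 8 passed at 2-fold beside 6.86%. The median difference of the member probes was 0.14, 0.01 and -0.05 on the log2 scale in these 3 comparisons, beside -0.04, -0.08 and -0.03 over all tested probes. The first and second comparisons share the Control arrays. In percent the members called were 50, 32.4 and 52.9 of those tested. Of these calls 4, 4 and 11 held in every alternative setting that tested the probe (15 settings, or 14 for 1 MIAT probe), which include leaving out each array in turn, and many of the smaller ones rested on single arrays. The calls that held throughout in the comparisons with Control were all on probes of UCA1, NEAT1 or MALAT1, and these genes are described first.

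**Figure D1:**
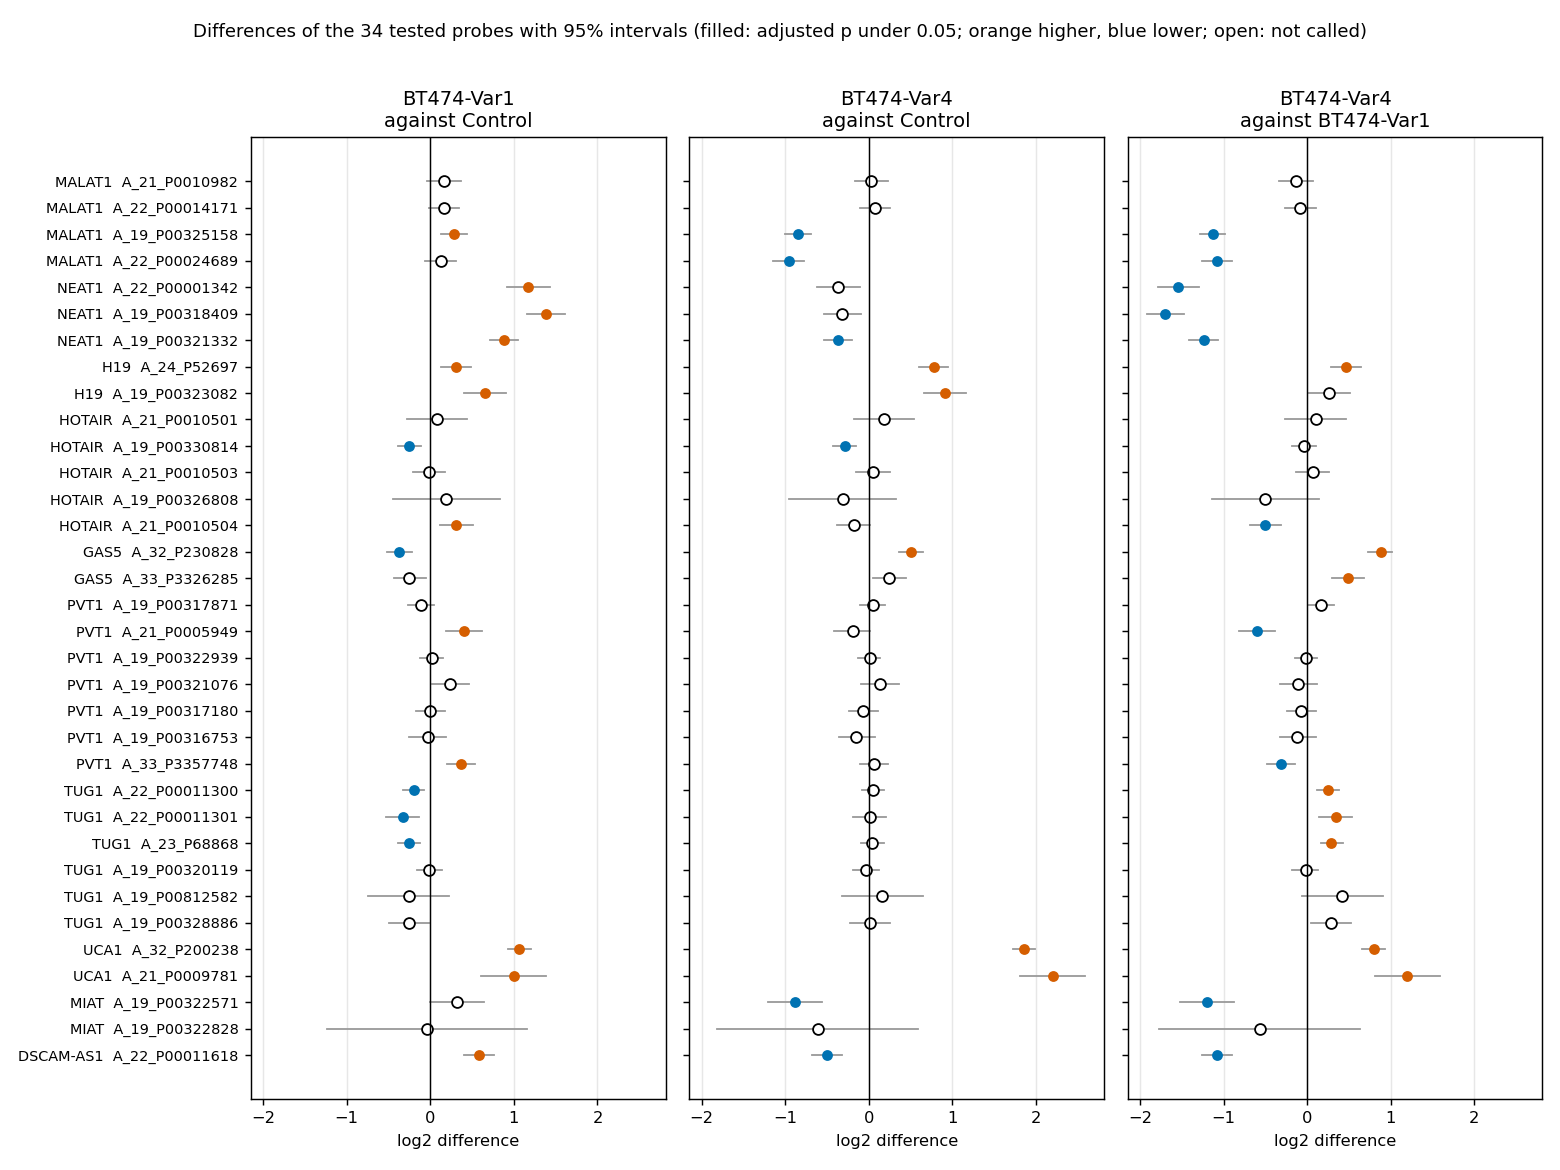
Log2 differences of the 34 tested probes (horizontal axis) with 95% confidence intervals in the 3 comparisons, 1 line per probe, with n = 2 arrays per group. Filled points passed an adjusted p of 0.05 (orange higher, blue lower in the first-named group) and open points did not. The UCA1 probes lie to the right in all 3 panels, the NEAT1 probes change side between the first and second panels, and only the lower pair of MALAT1 probes lies far to the left in BT474-Var4 cells. The MIAT probe A_19_P00322571 was not well above background on the BT474-Var4 arrays.

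UCA1, a lncRNA first described in urothelial cancer and known for its part in growth and drug resistance of tumor cells, rose in both populations, and further with variant 4 than with variant 1. Its probe A_32_P200238 (hg19 chr19:15946035-15946092, plus strand) read 1.70 and 1.73 in Control, 2.77 and 2.79 in BT474-Var1, and 3.56 and 3.59 in BT474-Var4 cells. The 3 groups did not overlap. The rise was 1.06 ± 0.05 (SE, n = 2 arrays per group) in BT474-Var1 cells, 2.09-fold, at an adjusted p of 0.00273 with limma. It was 1.86 ± 0.05 in BT474-Var4 cells, 3.63-fold, at an adjusted p of 0.00202 with limma, and the variants differed by 0.80 ± 0.05 at an adjusted p of 0.0017 with limma. These 3 calls held in all 15 alternatives.

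The second UCA1 probe, A_21_P0009781 (chr19:15947002-15947061), lies 967 bases further along the plus strand, and the order of the groups was the same on it. It read -2.96 and -2.57 in Control, -1.82 and -1.72 in BT474-Var1, and -0.52 and -0.62 in BT474-Var4 cells. The rise was 1.00 ± 0.15 in BT474-Var1 cells and 2.20 ± 0.15 in BT474-Var4 cells (SE, n = 2), at adjusted p of 0.011 and 0.0041 with limma, and the variants differed by 1.20 ± 0.15 at 0.00598. Of these, the call in BT474-Var1 cells was lost without BT474-Var1 array B (adjusted p = 0.0551 with limma; 1.1e-04 to 0.0551 over the 15 alternatives). Of the 8 tested gene names within 200 kb of UCA1, a transcript filed as ENST00000589310 was higher in both populations (+0.41 and +0.52), and the olfactory receptor gene OR10H2 was lower in BT474-Var1 cells (-0.49). Between the variants, OR10H2 was higher (+0.41) and OR10H1 lower (-0.55) in BT474-Var4 cells.

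NEAT1 rose in BT474-Var1 cells on each of its 3 probes, and on each it was lower with variant 4 than with variant 1. The probes lie within 1777 bases of chromosome 11 (hg19, plus strand), A_22_P00001342 at chr11:65192168-65192227, A_19_P00318409 at chr11:65192209-65192268 and A_19_P00321332 at chr11:65193885-65193944, and the first and second share 19 bases and are not independent. A_19_P00318409 read 0.98 and 0.77 in Control, 2.26 and 2.25 in BT474-Var1, and 0.56 and 0.55 in BT474-Var4 cells. A_22_P00001342 read 1.42 and 1.35, 2.60 and 2.51, and 0.91 and 1.13 in the same order. The BT474-Var1 arrays stood above all others on both, and both BT474-Var4 arrays lay below both Control arrays. A_19_P00321332 read 6.13 and 6.16 in Control, 7.07 and 6.97 in BT474-Var1, and 5.82 and 5.73 in BT474-Var4 cells, again with no overlap.

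The rise of NEAT1 in BT474-Var1 cells was 1.38 ± 0.08, 1.17 ± 0.09 and 0.88 ± 0.06 (SE, n = 2) on A_19_P00318409, A_22_P00001342 and A_19_P00321332, at adjusted p of 0.00326, 0.00432 and 0.00385 with limma. BT474-Var4 cells lay below BT474-Var1 cells by 1.70 ± 0.08, 1.54 ± 0.09 and 1.24 ± 0.06, differences of -1.70, -1.54 and -1.24, at adjusted p of 0.0013, 0.00168 and 0.00133. These calls held in all 15 alternatives. Against Control, BT474-Var4 cells differed by -0.32, -0.37 and -0.37 on the 3 probes, and only A_19_P00321332 was called (adjusted p = 0.0235 with limma). Each of the Control and BT474-Var4 arrays was needed for that call (without 1 of them, adjusted p = 0.0615 to 0.111 with limma; 2.0e-05 to 0.128 over the 15 alternatives).

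A further probe that the files annotate as NEAT1 but file under the transcript ENST00000501122, A_21_P0010978 (chr11:65194123-65194182), is not in the count of member probes and lies downstream of them. It read -1.08 and -0.77 in Control, 0.08 and 0.06 in BT474-Var1, and -1.32 and -1.23 in BT474-Var4 cells. Like the 3 member probes, it was highest in BT474-Var1 cells, by 1.00 ± 0.12 (SE, n = 2) over Control at an adjusted p of 0.00709 with limma, and between the variants it differed by -1.34 ± 0.12 at 0.00297. Both calls held in all 15 alternatives.

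The probes filed under MALAT1 changed unevenly along its annotated length. Its 4 probes cover 5312 bases of chromosome 11 on the plus strand, A_21_P0010982 (chr11:65268619-65268678), A_22_P00014171 (chr11:65270980-65271039), A_19_P00325158 (chr11:65273714-65273773) and A_22_P00024689 (chr11:65273871-65273930). On the last pair, nearest the 3′ end, BT474-Var4 cells lay below both other groups, and on the first pair no difference was called. A_19_P00325158 read 2.01 and 2.05 in Control, 2.33 and 2.30 in BT474-Var1, and 1.23 and 1.14 in BT474-Var4 cells. A_22_P00024689 read 3.82 and 3.79, 3.93 and 3.93, and 2.92 and 2.77 in that order. Both BT474-Var4 arrays stood apart from the other 4 on both probes.

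The fall in BT474-Var4 cells was -0.85 ± 0.06 and -0.95 ± 0.07 (SE, n = 2) against Control on the 2 late probes, at adjusted p of 0.00414 and 0.00454 with limma. It was -1.13 ± 0.06 and -1.08 ± 0.07 against BT474-Var1 cells, at 0.00133 and 0.00176. These 4 calls held in all 15 alternatives. The early probes differed in BT474-Var4 cells against Control by 0.03 (95% interval -0.17 to 0.23) and 0.08 ± 0.07, and their arrays ran from 5.18 to 5.43 for A_21_P0010982 and from 8.29 to 8.48 for A_22_P00014171 over all 6. In BT474-Var1 cells A_19_P00325158 alone was called (+0.28, adjusted p = 0.0239 with limma), and each of the Control and BT474-Var1 arrays was needed for it (without 1 of them, adjusted p = 0.0765 to 0.111; 8.7e-04 to 0.137 over the 15 alternatives).

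Since all 4 probes are read on the same array, their difference within an array does not depend on the scaling between arrays. The mean of the 2 late probes less that of the 2 early ones was -3.90 and -3.82 in Control, -3.82 and -3.81 in BT474-Var1, and -4.82 and -4.80 in BT474-Var4 cells. The BT474-Var4 arrays were thus about 1 log2 unit lower than the other 4, a contrast chosen after the values were seen and given with no test. Such a ratio shows unequal change and does not say which end changed. Which transcript forms the probes detect was not tested, nor whether the 2 late probes lie within the processed RNA.

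**Figure D2:**
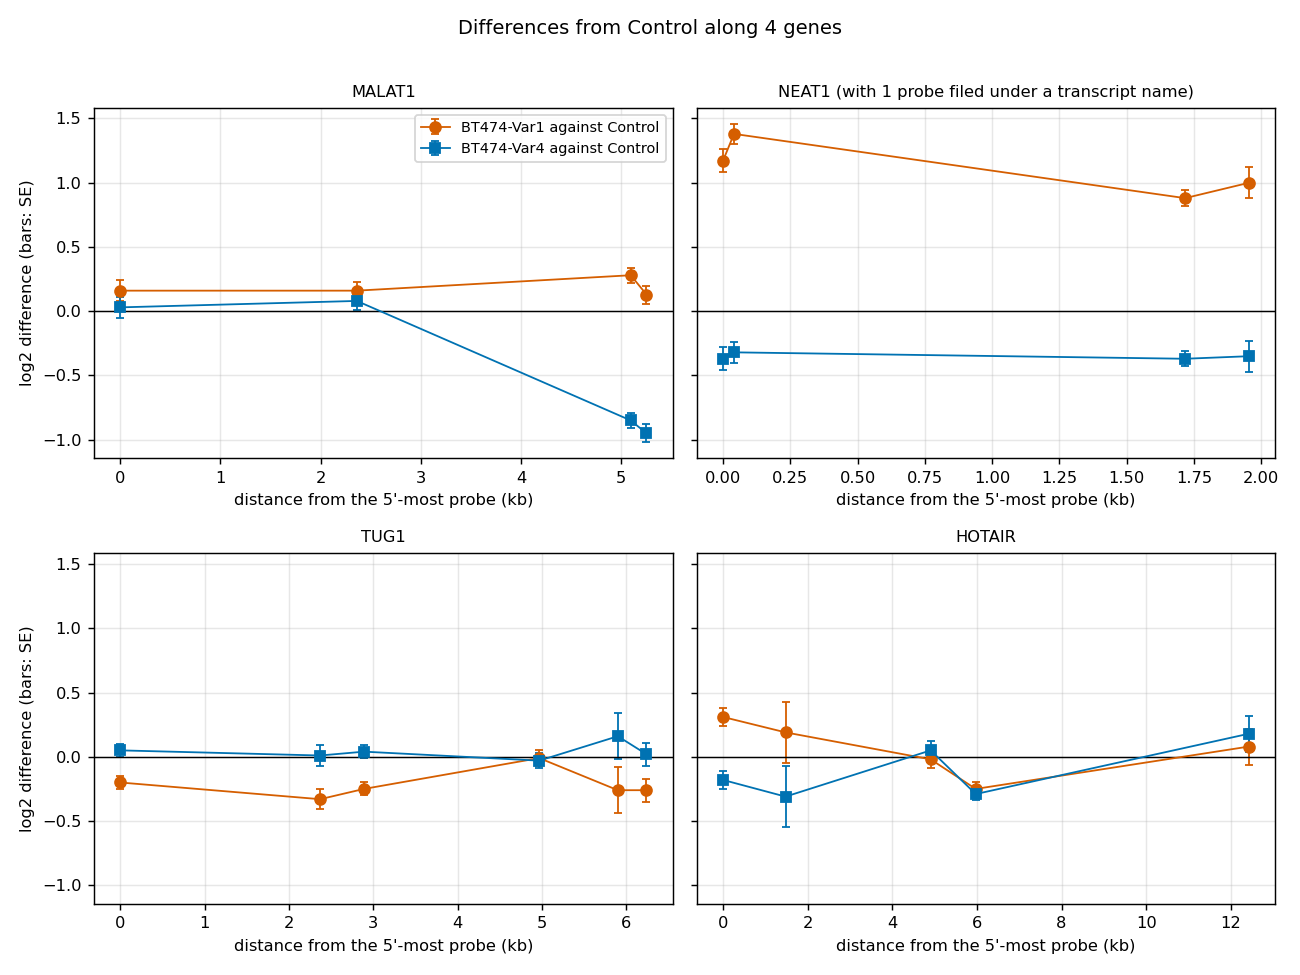
Log2 differences of BT474-Var1 (orange circles) and BT474-Var4 (blue squares) cells from Control (vertical axis, bars SE, n = 2 arrays per group) by the distance of the probe from the 5′-most probe in kb, for MALAT1, NEAT1, TUG1 and HOTAIR. For NEAT1 the orange points lie between 0.88 and 1.38 at every position, while for MALAT1 the blue points lie near 0 at the first 2 positions and at -0.85 and -0.95 at the last 2.

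NEAT1 and MALAT1 are neighbours, and other probes between and around them were read as well. Of the 23 tested gene names within 200 kb of a NEAT1 probe, 8 were higher and 3 lower in BT474-Var1 cells than in Control, and 0 higher and 4 lower in BT474-Var4 cells (0 higher by limma without adjustment and 0 by the methods' analysis of variance). The 23 and the 8 include ENST00000501122, which is annotated as NEAT1 itself. Over all genes 14.2% were higher and 20.7% lower in BT474-Var1 cells, and 10.2% and 14.6% in BT474-Var4 cells. Higher in BT474-Var1 cells were LTBP3 (+0.57), which encodes a TGF-beta binding protein, SLC25A45 (+0.42), SSSCA1-AS1 (+0.38), lnc-LTBP3-2 (+0.29), and 4 probes filed under transcript identifiers, ENST00000501122 described above, THC2576171 (+0.86), ENST00000619960 (+0.82) and ENST00000625158 (+0.81). THC2576171 lies on the minus strand within the span of the NEAT1 probes and was also lower in BT474-Var4 cells than in Control (-0.75) and than in BT474-Var1 cells (-1.61). Lower in BT474-Var1 cells were POLA2 (-0.59), CDC42EP2 (-0.36) and FAM89B (-0.26), and these fell in BT474-Var4 cells too (-0.43, -0.47 and -0.26). MIR612, a microRNA gene further along the plus strand, differed between the variants (-0.54). Against Control it was called neither with variant 1 (+0.31, adjusted p = 0.126 with limma) nor with variant 4 (-0.23, 0.243). Which transcript forms the NEAT1 and MIR612 probes detect was not tested. The rise of NEAT1 can thus not be assigned to the RNA that forms the scaffold of paraspeckles. For MALAT1, 24 names were tested, with PCNXL3 (-0.32 in BT474-Var1 cells) in the place of POLA2.

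H19, the imprinted RNA of fetal tissue that often returns in tumors, was higher in both populations than in Control. Its probes lie 287 bases apart on the minus strand of chromosome 11, A_24_P52697 at chr11:2016674-2016733 and A_19_P00323082 at chr11:2016961-2017020. A_24_P52697 read 0.25 and 0.33 in Control, 0.66 and 0.54 in BT474-Var1, and 1.08 and 1.06 in BT474-Var4 cells. A_19_P00323082 read -0.97 and -1.04, -0.48 and -0.24, and -0.08 and -0.12 in that order. The groups did not overlap on either probe, and the order was Control, BT474-Var1, BT474-Var4 on both.

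In BT474-Var4 cells the rise of H19 was 0.78 ± 0.07 and 0.91 ± 0.09 (SE, n = 2), at adjusted p of 0.00581 and 0.00818 with limma, and in BT474-Var1 cells it was 0.31 ± 0.07 and 0.65 ± 0.09, at 0.0277 and 0.0109. Between the variants A_24_P52697 differed by 0.47 ± 0.07 (adjusted p = 0.0084 with limma) and A_19_P00323082 by 0.26 ± 0.09 (0.0876). The calls of A_24_P52697 in BT474-Var4 cells and between the variants were lost only without the filter on dim probes (0.0519 and 0.0556 with limma). Leaving out 1 Control array ended both calls of A_19_P00323082 against Control (adjusted p = 0.0525 to 0.0571 with limma in BT474-Var4 and 0.0548 to 0.0616 in BT474-Var1 cells), and that of A_24_P52697 in BT474-Var1 cells was lost without any 1 of the 6 arrays (0.0514 to 0.123). Over the 15 alternatives the adjusted p of these 3 calls ran from 6.9e-06 to 0.0571, from 1.1e-04 to 0.0616 and from 0.00268 to 0.136. Among the 14 tested neighbours, MRPL23-AS1 rose in both populations (+0.90 and +0.59), while MRPL23, a mitochondrial ribosomal protein gene (-0.46), and LSP1 (-0.25) were lower in BT474-Var1 cells. In BT474-Var4 against BT474-Var1 cells MRPL23 (+0.28) and LSP1 (+0.21) were higher and MRPL23-AS1 (-0.32) and XLOC_l2_002194 (-0.71) lower.

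GAS5, a growth arrest-specific transcript that carries snoRNAs, differed between the variants on both probes, higher with variant 4. They lie on the minus strand of chromosome 1, A_33_P3326285 at chr1:173833049-173833108 and A_32_P230828 at chr1:173833020-173833037, for which the files place only 18 of the 60 bases. A_32_P230828 read 6.11 and 6.05 in Control, 5.74 and 5.68 in BT474-Var1, and 6.61 and 6.57 in BT474-Var4 cells. A_33_P3326285 read 8.41 and 8.36, 8.10 and 8.18, and 8.70 and 8.56. Control lay between the variants on both probes, with no overlap.

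The variants differed by 0.88 ± 0.06 and 0.49 ± 0.07 (SE, n = 2) on A_32_P230828 and A_33_P3326285, at adjusted p of 0.00172 and 0.00939 with limma. The call of A_33_P3326285 was lost only without the filter on dim probes (adjusted p = 0.057 with limma). Against Control A_32_P230828 was lower in BT474-Var1 cells (-0.37 ± 0.06, adjusted p = 0.0117 with limma) and higher in BT474-Var4 cells (0.51 ± 0.06, 0.00899), and A_33_P3326285 differed by -0.25 and 0.24 with neither called. The call in BT474-Var1 cells was lost without Control A, Control B or BT474-Var1 B (adjusted p = 0.0544 to 0.0682 with limma; 5.5e-06 to 0.0838 over the 15 alternatives), and that in BT474-Var4 cells without either Control array (0.0544 to 0.0607; 3.8e-07 to 0.0754). A probe annotated as GAS5 but filed under ENST00000425771, A_22_P00014325 (chr1:173835009-173835068), read 2.42 and 2.33 in Control, 1.93 and 1.83 in BT474-Var1, and 2.75 and 2.70 in BT474-Var4 cells. It kept the same order of the groups, with differences of -0.49 ± 0.07, 0.35 ± 0.07 and, between the variants, 0.84 ± 0.07 at an adjusted p of 0.00254 with limma. The last held in all 15 alternatives, and the others in 13 and 9 of them.

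Probes for the snoRNAs that lie within GAS5 were lower than in Control or not called, while GAS5 A_32_P230828 was lower with variant 1 and higher with variant 4. SNORD47 was lower than in Control in both populations (-0.48 and -0.65), SNORD80 likewise (-0.26 and -0.34), and SNORD74 was lower in BT474-Var4 cells than in Control (-0.55) and than in BT474-Var1 cells (-0.52). SNORD76 differed between the variants alone, lower with variant 4 (-0.34). Whether these probes detect the processed snoRNA or the unspliced host RNA was not tested. Of the other neighbours, CENPL, a centromere protein, was lower in BT474-Var1 cells (-0.36) and differed between the variants (+0.34), as did lnc-SERPINC1-1 (-0.22 and +0.73; +0.51 in BT474-Var4 cells against Control). ZBTB37, a zinc finger gene, was higher in both (+0.48 and +0.47), and lnc-SERPINC1-3 was higher in BT474-Var1 (+0.31) and lower in BT474-Var4 cells (-0.48; -0.79 between the variants). Between the variants KLHL20 (+0.27) and RC3H1 (-0.20) differed as well.

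**Figure D3:**
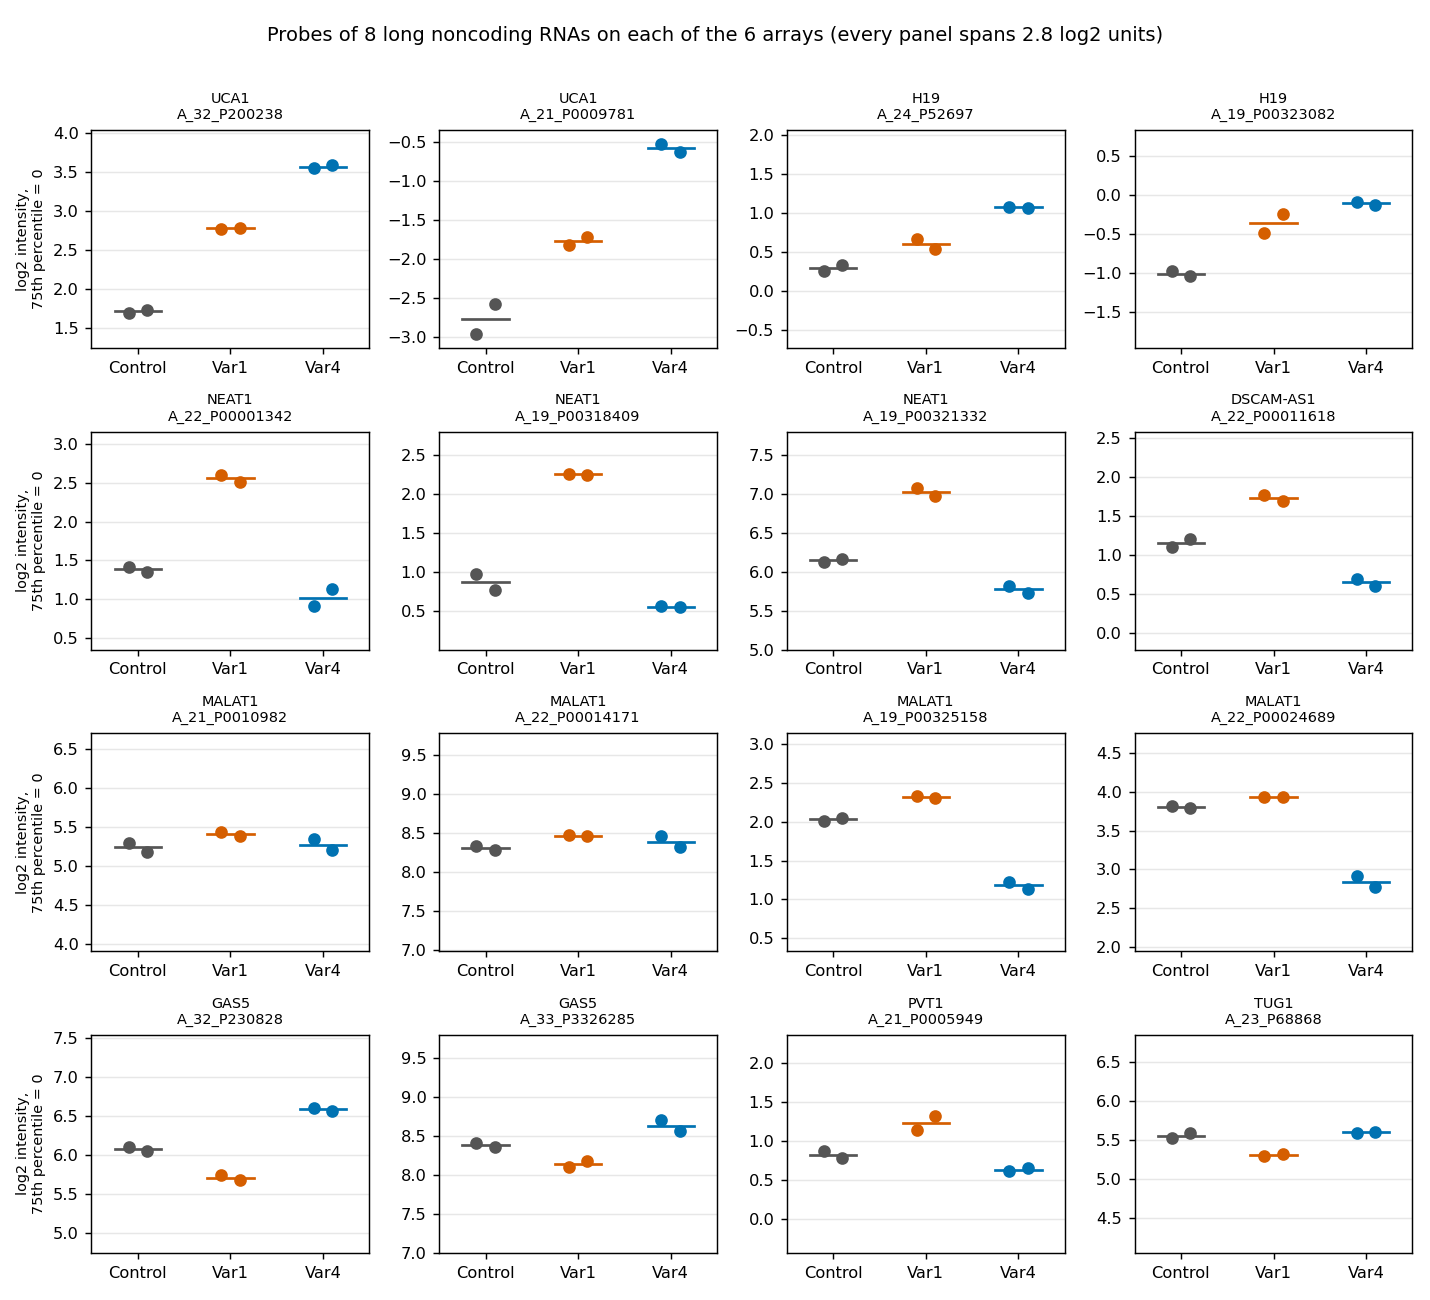
Log2 intensity of 16 probes of 8 lncRNAs (vertical axis, with the 75th percentile of the array at 0) on each of the 6 arrays, as points, with a line at the mean of the 2 arrays of a group; every panel spans the same range. UCA1 and H19 climb from Control over BT474-Var1 to BT474-Var4 cells, NEAT1 and DSCAM-AS1 are highest in BT474-Var1 cells, and of MALAT1 only the last 2 probes are low in BT474-Var4 cells.

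DSCAM-AS1 was measured by 1 probe, A_22_P00011618 (chr21:41757123-41757182, plus strand), and was higher in BT474-Var1 and lower in BT474-Var4 cells than in Control. It read 1.10 and 1.20 in Control, 1.76 and 1.69 in BT474-Var1, and 0.69 and 0.60 in BT474-Var4 cells, with no overlap. In BT474-Var1 cells the difference was 0.58 ± 0.07 (SE, n = 2), at an adjusted p of 0.00697 with limma. That call was lost only without the filter on dim probes (adjusted p = 0.0518 with limma). The difference was -0.50 ± 0.07 in BT474-Var4 cells, at 0.0135, and -1.08 ± 0.07 between the variants, at 0.0017. The last held in all 15 alternatives, and that in BT474-Var4 cells needed Control A, Control B and BT474-Var4 B (without 1 of these, adjusted p = 0.0598 to 0.0746 with limma; 3.5e-05 to 0.0886 over the 15 alternatives).

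Because DSCAM-AS1 is known as an estrogen-regulated RNA, 14 tested genes of the estrogen receptor and its targets were read beside it. In BT474-Var4 cells 8 were lower and 1 was higher than in Control, with a median of -0.52 against -0.08 over all genes tested, where 14.6% of genes were lower and 10.2% higher. PGR, the progesterone receptor (-1.22), TFF1, the trefoil factor (-1.03), and GREB1, a cofactor of the receptor (-0.85), fell furthest. In BT474-Var1 cells 7 were lower and 0 higher, with a median of -0.29 against -0.05, beside 20.7% lower and 14.2% higher over all genes, and the largest falls were those of GREB1 (-0.49), IGFBP4 (-0.47) and CA12 (-0.43). Without adjustment limma passed 1 gene as higher there, and the methods' analysis of variance called 2. So DSCAM-AS1 was lower together with this list in BT474-Var4 cells and higher while 7 of the list were lower in BT474-Var1 cells. Between the variants 6 were lower and 2 higher in BT474-Var4 cells, led by TFF1 (-1.21), PGR (-0.93) and CA12 (+0.91). Over all genes 21% were lower and 20.9% higher in that comparison.

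TUG1, a nuclear RNA linked to polycomb silencing, was measured by 6 probes over 6301 bases of chromosome 22 (chr22:31369036-31375336, plus strand). Of these, 3 were lower in BT474-Var1 cells than in Control and than in BT474-Var4 cells, and 0 were called in BT474-Var4 cells against Control by limma, with 0 also without adjustment (adjusted p of 0.495 to 0.936) and 0 by the methods' one-way analysis of variance. A_23_P68868 read 5.53 and 5.59 in Control, 5.30 and 5.32 in BT474-Var1, and 5.60 and 5.61 in BT474-Var4 cells. A_22_P00011301 read 3.78 and 3.65, 3.32 and 3.44, and 3.75 and 3.71. A_22_P00011300 read 1.16 and 1.13, 0.94 and 0.95, and 1.18 and 1.21. The BT474-Var1 arrays were the lowest on all 3, by -0.25 ± 0.05, -0.33 ± 0.08 and -0.20 ± 0.05 (SE, n = 2) against Control, at adjusted p of 0.0239, 0.0311 and 0.0371 with limma, and BT474-Var4 cells lay above them by 0.29, 0.34 and 0.25.

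These TUG1 calls were small and did not hold when arrays were left out. Each of the Control and BT474-Var1 arrays was needed for those against Control, and for A_22_P00011301 and A_22_P00011300 each of the 6 (without 1 array, adjusted p from 0.0602 to 0.153 with limma over those fits of the 3 probes; 1.6e-04 to 0.218 over the 15 alternatives). Those between the variants needed each of the 4 arrays compared (0.0511 to 0.0958; 3.3e-05 to 0.131 over the 15). The other 3 probes differed in BT474-Var1 cells against Control by -0.01, -0.26 and -0.26 and were not called. Of 7 tested neighbours, INPP5J, an inositol phosphatase gene (+0.66), was higher and MORC2, a chromatin ATPase gene (-0.58), and ENST00000397595 (-0.28) were lower in BT474-Var1 cells, and MORC2 (+0.39) and SMTN (-0.42) differed between the variants. ENST00000397595 was lower in BT474-Var4 cells too (-0.26).

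PVT1, which lies beside MYC on chromosome 8, was measured by 7 probes over 210546 bases, 2 of which share 47 bases. In BT474-Var1 cells 2 probes were higher than in Control, and 0 of 7 were called in BT474-Var4 cells by limma, 0 without adjustment and 0 by the methods' analysis of variance (differences of -0.19 to 0.14). A_21_P0005949 read 0.87 and 0.78 in Control, 1.14 and 1.32 in BT474-Var1, and 0.61 and 0.65 in BT474-Var4 cells, and A_33_P3357748 read 1.93 and 2.06, 2.39 and 2.35, and 2.06 and 2.05. Only BT474-Var1 cells stood apart on the second probe. The rises were 0.40 ± 0.08 and 0.37 ± 0.06 (SE, n = 2), at adjusted p of 0.024 and 0.0159 with limma, and BT474-Var4 cells lay below BT474-Var1 cells by -0.60 and -0.31, at 0.00779 and 0.0205. The first of these last calls held in all 15 alternatives. The rise of A_21_P0005949 was lost without every array but BT474-Var1 A (adjusted p = 0.0503 to 0.109 with limma; 4.4e-04 to 0.109 over the 15 alternatives), that of A_33_P3357748 without Control A, BT474-Var1 A or BT474-Var1 B (0.061 to 0.0709; 9.3e-05 to 0.0944), and its difference between the variants without any array compared (0.0687 to 0.0842; 3.4e-04 to 0.111). The probe A_19_P00322939 read 2.08 to 2.14 over all 6 arrays, with differences of 0.02, 0.01 and -0.01.

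Next to PVT1, MYC itself, the transcription factor, was lower in BT474-Var1 cells (-0.62, adjusted p = 0.00395 with limma) and in BT474-Var4 cells (-0.58, 0.00539), so that MYC and the called PVT1 probes moved apart in BT474-Var1 cells. A transcript that the files annotate as PVT1 but file as ENST00000522875 was higher in BT474-Var1 cells (+0.31), a call that held in 7 of 15 alternatives (largest adjusted p 0.136 with limma), and lnc-MYC-2 was lower in BT474-Var4 cells, by -0.55 against Control and -0.56 against BT474-Var1 cells. THC2582227 was lower in BT474-Var4 cells than in Control (-1.14). The other 3 probes annotated as PVT1 under transcript identifiers were called in no comparison.

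HOTAIR, transcribed from the HOXC cluster on chromosome 12 and known to bind polycomb and LSD1 complexes, was measured by 5 probes over 12494 bases of the minus strand (chr12:54350159-54362652). Of these, A_21_P0010501 starts 6461 bases from the next probe and, unlike the others, is not annotated to a reference transcript. Whether it detects the same RNA was not tested. A_19_P00330814 read 1.55 and 1.49 in Control, 1.26 and 1.29 in BT474-Var1, and 1.23 and 1.24 in BT474-Var4 cells, and A_21_P0010504 read -0.59 and -0.69, -0.26 and -0.39, and -0.84 and -0.81. The probes thus went opposite ways in BT474-Var1 cells. The former was lower by -0.25 ± 0.05 and -0.29 ± 0.05 (SE, n = 2) in BT474-Var1 and BT474-Var4 cells, at adjusted p of 0.0273 and 0.026 with limma. The latter was higher in BT474-Var1 cells by 0.31 ± 0.07 (0.0326) and differed by -0.50 ± 0.07 (0.00888) between the variants. Its call between the variants was lost only without the filter on dim probes (adjusted p = 0.0549 with limma). The 3 calls against Control were lost without any 1 of the 6 arrays (adjusted p = 0.054 to 0.136 with limma; 9.7e-04 to 0.162 over the 15 alternatives). The other 3 probes, which read between -2.77 and -0.12, were called in no comparison.

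The HOXC genes around HOTAIR moved in both directions. Of 18 tested names, 1 was higher and 7 lower in BT474-Var1 cells, and 3 higher and 8 lower in BT474-Var4 cells, beside 14.2% and 20.7% and then 10.2% and 14.6% over all genes. HOXC13, a homeobox gene at the end of the cluster, read 0.90 and 0.96 in Control, 0.55 and 0.55 in BT474-Var1, and 1.82 and 1.82 in BT474-Var4 cells, so it was lower in BT474-Var1 (-0.38) and higher in BT474-Var4 cells (+0.89, and +1.27 between the variants). Its antisense HOXC13-AS (-0.38, +1.03 and +1.40) and HOXC-AS3 (-0.40, +0.30 and +0.70) had the same order. HOXC-AS1 rose in BT474-Var1 cells alone (+1.01; -0.95 between the variants). HOXC8 (-0.36 and -0.77) and HOXC9 (-0.21 and -0.25) were lower in both populations, HOXC10 in BT474-Var1 cells (-0.37), and HOXC4 (-0.50), HOXC-AS2 (-0.67), LOC400043 (-0.49), lnc-SMUG1-6 (-0.33) and ENST00000562848 (-1.21) in BT474-Var4 cells. LOC100240734 was lower in both but was well above background on the Control arrays only, at least 1.32-fold and 1.36-fold.

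MIAT, a nuclear RNA best known from heart and retina, was at or below background on most of its probes. Its probes A_19_P00322219, A_21_P0010347, A_19_P00320498 and A_24_P854492 were well above background on no array. A_19_P00322571 (chr22:27061642-27061701, plus strand) read -3.75 and -4.08 in Control, -3.57 and -3.62 in BT474-Var1, and -4.83 and -4.76 in BT474-Var4 cells, where it was not well above background. Between the variants it was at least 1.24-fold higher with variant 1 (adjusted p = 0.00396 with limma), a bound against the dimmest well-above-background probe of those arrays. The probe entered the test only through the groups in which it was above background, so its calls are no support for a difference beyond that bound. For Control over BT474-Var4 cells the bound allows no fold, and the call (adjusted p = 0.0143 with limma) was lost without either BT474-Var4 array (0.0626 to 0.0648; 0.0141 to 0.0901 over its 14 alternatives). Such bounds, here and for the other folds given as at least, are not strict limits. MIAT A_19_P00320498 read -4.01 on BT474-Var4 array A, above the dimmest well-above-background value there (-4.20), without being well above background. A_19_P00322828 was above background on all 6 arrays and was called in no comparison. It read -2.96 and -2.28, -3.22 and -2.10, and -3.40 and -3.07 in the same order. BT474-Var1 overlapped both other groups, while BT474-Var4 and Control did not overlap. Of 8 tested neighbours, SRRD (-0.31) and TPST2, a protein sulfotransferase gene (-0.32), were lower and ENST00000382641 (+0.87) was higher in BT474-Var4 cells than in Control, and the last was higher than in BT474-Var1 cells too (+1.15). SRRD (-0.37) and TPST2 (-0.36) were lower in BT474-Var1 cells as well.

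Genes of the same pathways were counted with 1 probe each. Of 31 other tested cancer lncRNAs, 10 were higher and 7 lower in BT474-Var1 cells, 5 higher and 7 lower in BT474-Var4 cells, and 8 higher and 9 lower between the variants, beside 14.2% and 20.7%, 10.2% and 14.6%, and 20.9% and 21% over all genes. MIR210HG, host of a hypoxia microRNA, read -3.59 and -2.99 in Control, 1.01 and 0.97 in BT474-Var1, and -3.54 and -3.70 in BT474-Var4 cells, where 1 of 2 arrays was well above background. Its rise in BT474-Var1 cells was 4.28 ± 0.21 (SE, n = 2; adjusted p = 0.0029 with limma). PCAT6 (+0.82) was also higher there and DANCR (-0.86) lower. LINC00152, or CYTOR, read -0.21 and -0.11 in Control and 1.65 and 1.67 in BT474-Var4 cells, a rise of 1.81 ± 0.06 (adjusted p = 0.00203 with limma), with BT474-Var1 cells between at 0.34 and 0.41. CASC15 (+1.06) was higher and MIR17HG (-0.94) lower in BT474-Var4 cells, and between the variants MIR210HG (-4.61) and LINC00152 (+1.28) differed most, while MEG8 was at least 1.80-fold lower in BT474-Var4 cells, not well above background there.

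SnoRNA host genes without a protein, the class to which GAS5 belongs, were lower in 8 and higher in 0 of 17 in BT474-Var1 cells (median -0.21, beside 20.7% lower and 14.2% higher and a median of -0.05 over all genes), with DANCR (-0.86), SNHG3 (-0.80) and SNHG10 (-0.67) furthest down. With quantile normalization 4 were lower and 1 higher there, beside 17.7% and 15% over all genes, with a median of -0.06 beside -0.04. By limma without adjustment 1 host passed as higher, as 1 did by the methods' analysis of variance. DANCR is also in the cancer lncRNA list. In BT474-Var4 cells 9 were lower and 4 higher (median -0.31, beside 14.6% and 10.2% and -0.08 over all genes), with SNHG10 (-0.69) and SNHG3 (-0.52) lower and SNHG8 (+0.56) higher. Between the variants 6 were higher, among them SNHG8 (+0.64) and ZFAS1 (+0.59), and 1 was lower, beside 20.9% and 21% over all genes. SNHG4 was not well above background in BT474-Var4 cells and at least 1.43-fold lower. The balance of the hosts turned to 5 higher and 6 lower with quantile normalization, beside 20.4% and 18.7% over all genes. The GAS5 difference between the variants on A_32_P230828 held in all 15 alternatives.

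Of 34 paraspeckle proteins, the partners of NEAT1, 4 were higher and 15 lower in BT474-Var1 cells (median -0.17), 5 higher and 8 lower in BT474-Var4 cells (median -0.07), and 10 higher and 5 lower between the variants (median 0.12). Over all genes 14.2% were higher and 20.7% lower, 10.2% and 14.6%, and 20.9% and 21% in the same order. With quantile normalization the counts were 7 and 9 (median -0.09), 5 and 5, and 7 and 5. The shares over all genes were then 15% and 17.7%, 10.9% and 11.2%, and 20.4% and 18.7%. With normexp background correction the counts were 6 and 20, 5 and 11, and 17 and 5. The shares beside these were 20.2% and 26.9%, 14.7% and 20.6%, and 27% and 31.8%. In BT474-Var1 cells ZC3H6 (+1.37) and AKAP8L (+0.86) were among those higher than in Control. In BT474-Var4 cells ZC3H6 (+0.84), PSPC1 (+0.70) and DLX3 (+0.69) were higher than in Control, and between the variants FIGN (+0.84) and AKAP8L (-0.68) differed. Of 16 genes of the polycomb and LSD1 complexes, partners of HOTAIR, 2 were higher and 5 lower in BT474-Var1 cells, led by PHF19 (-0.56), KDM1A (-0.51) and PHF1 (+0.48), beside 14.2% and 20.7% over all genes. Quantile normalization gave 3 higher and 3 lower, beside 15% and 17.7% over all genes, and the median went from -0.06 to 0.06. With normexp background correction 3 were higher and 7 lower (median -0.12), beside 20.2% and 26.9%. In BT474-Var4 cells 0 were higher and 2 lower, EZH2, the methyltransferase of the complex (-0.56), and RBBP7 (-0.55), with 2 higher by limma without adjustment and 0 by the methods' analysis of variance. Between the variants 4 were higher and 5 lower, led by PHF19 (+0.72), RBBP7 (-0.57) and KDM1A (+0.49).

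**Figure D4:**
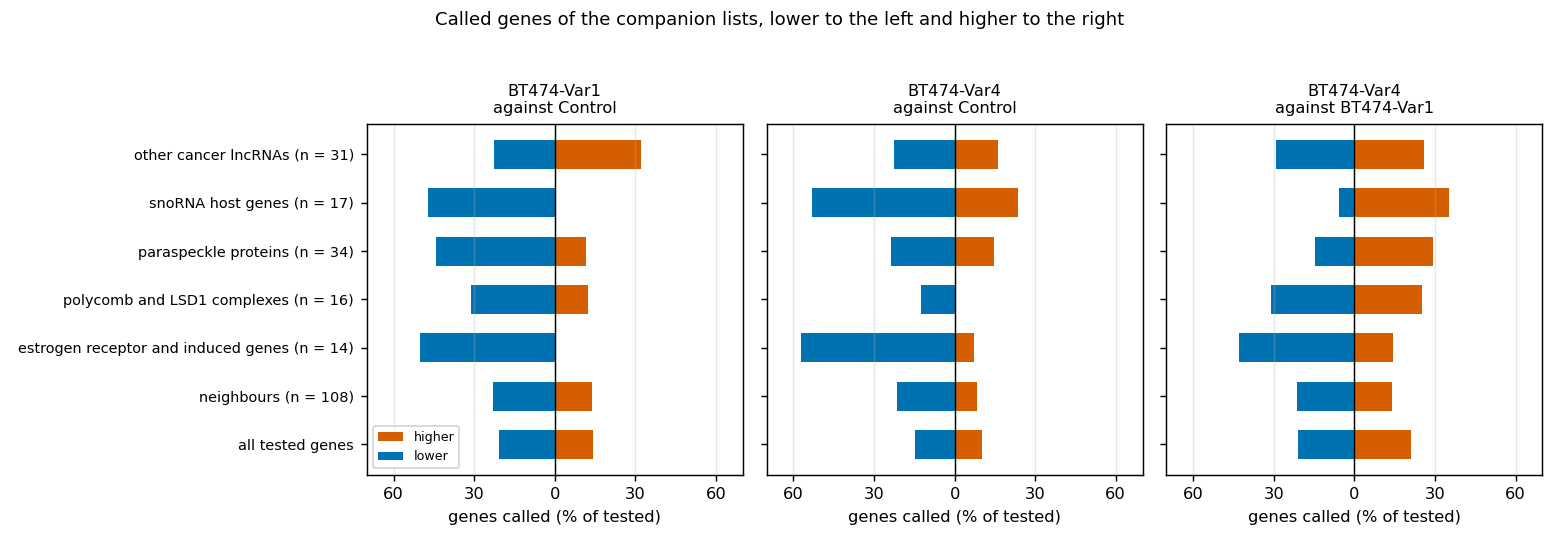
Share of the tested genes of each list, in percent, that were called lower (blue, to the left) or higher (orange, to the right) in the 3 comparisons, with the share over all tested genes at the bottom and the number of tested genes beside each name. The snoRNA host and estrogen lists have no orange bar in BT474-Var1 cells against Control. There the other cancer lncRNAs and the neighbours lie near the share of all genes on the blue side. In BT474-Var4 cells against Control their blue bars (7 of 31 and 23 of 108) are longer than that of all genes (14.6%).

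As a description, the tested probes of other gene names whose levels were most like those of a called member probe over the 6 arrays were listed, by Pearson's r, with the brightest called probe for each member. NEAT1 was closest to MST1 (0.9997) and PDE2A (0.9996), UCA1 to LINC01511 (0.9993) and ZNF44 (0.9988), MALAT1 to NPIPB15 (0.9996) and TMEM105 (0.9989), H19 to TNFAIP2 (0.9996) and ANK3 (0.9990), and GAS5 to DERL2 (0.9990) and ANXA4 (0.9989). DSCAM-AS1 was closest to lnc-WNT7A-1 and FEM1C (0.9989 each), TUG1 to ENST00000392417 (0.9989) and GTF2A2 (0.9983), PVT1 to CCDC64B (0.9989) and ENST00000548457 (0.9982), HOTAIR to XLOC_l2_006665 (0.9998) and RPL29P2 (0.9991), and MIAT to INE1 (0.9990) and lnc-MRPL14-1 (0.9976). The 6 arrays form 3 pairs, so a probe needs only the same order and spacing of 3 group means to reach such an r.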

How the data were processed

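Cy3-labeled RNA of the 3 groups was hybridized to one-color arrays from Agilent, 2 per group. Feature Extraction 11.5.1.1 was the authors' program for spot quantification and background subtraction, and they shifted each array to its 75th percentile. The deposited array files hold spot intensities on a linear scale, with probe positions on hg19, and a deposited table holds log2 values after the shift, where 0 is the 75th percentile. Each column of the table matched its own array (median absolute difference up to 0.00716). Log2 of the processed intensity was used, without outlier spots, with the spots of a probe averaged, less the 75th percentile over non-control probes. No spot was saturated.

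The test took the 31858 of 58201 probes that both arrays of any group measured well above background. limma 3.58.1 in R 4.3.3 fitted group means to all 6 arrays (3 residual and 1.53 prior degrees of freedom) with Benjamini-Hochberg adjustment over all tested probes. A probe was called at an adjusted p under 0.05. The fit was tested on simulated data. The number of arrays limits the precision. A gene of a list was represented by its tested probe with the highest mean. Neighbours lie within 200 kb of a member's probe.

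Named were all members' probes, up to 3 called genes of a list with the largest differences per comparison, neighbours called where the member was, and the 2 gene names most like a member. Probes that the annotation text gives to a member under another name were added after the values were seen, as were neighbours of TUG1, PVT1 and MIAT in comparisons where the member was not called. The members and lists were chosen with earlier results of these data known. The 15 alternatives left out each array in turn, dropped the filter, required all 6 arrays above background, applied normexp (offset 50) or quantile normalization, took the deposited table, blocked on the replicate letter, used trend and robust options of eBayes, fitted the compared groups alone, or used one-way analysis of variance as in the study's methods. Some items that these rules select are not reported here. No exon annotation of hg19 was used here.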

Additional observations from a re-analysis of the deposited data

How the results depend on the processing

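Of the member probes called, 17 in BT474-Var1 cells, 11 in BT474-Var4 cells and 18 between the variants, 4, 4 and 11 held in every alternative that tested them (15, or 14 for MIAT A_19_P00322571). Without the filter on dim probes 4, 4 and 11 were called, with 58201 probes in the fit in place of 31858. With the replicate letter as a block 10, 10 and 17 were called, and the letters do not pair the samples (r of the A minus B differences between groups -0.015 to 0.045). With 1 array left out the counts ran from 6 to 12, 6 to 10 and 14 to 18, each with fewer samples in the fit. In all other settings the counts stayed within 1.5 times those reported: 12 to 21 in the first, 10 to 14 in the second and 17 to 22 in the third comparison. The counts of lower genes in the lists shrank without the filter, as did the share over all genes. Against Control, BT474-Var1 cells then had 0 of 14 estrogen genes and 3 of 17 snoRNA hosts lower, beside 3.94% over all genes. For BT474-Var4 cells these counts were 4 of 14 and 0 of 17, beside 0.885%. The slide column as a block was not run: no other group shares the columns of the Control arrays, and between the variants the columns coincide with the replicate letters.

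Of the 102 differences of single probes, 27 values changed sign under an alternative, none of them called there. In BT474-Var1 cells against Control, normexp gave -0.01 for PVT1 A_19_P00322939 and 0.11 for MIAT A_19_P00322828, and quantile normalization 0.02 for PVT1 A_19_P00316753 and 0.08 for TUG1 A_19_P00320119. Between the variants normexp gave 0.03 for HOTAIR A_19_P00330814, 0.04 for PVT1 A_19_P00322939 and 0.01 for TUG1 A_19_P00320119. The rest came with 1 array left out, where the values ran as follows. Against Control in BT474-Var1 cells they ran from -0.03 to 0.19 for HOTAIR A_21_P0010501, -0.05 to 0.43 for HOTAIR A_19_P00326808, -0.01 to 0.05 for PVT1 A_19_P00322939, -0.09 to 0.03 for PVT1 A_19_P00316753, -0.05 to 0.02 for TUG1 A_19_P00320119 and -0.60 to 0.52 for MIAT A_19_P00322828. In BT474-Var4 cells they ran from -0.04 to 0.09 for MALAT1 A_21_P0010982, -0.04 to 0.14 for HOTAIR A_21_P0010503, -0.02 to 0.04 for PVT1 A_19_P00322939, -0.01 to 0.12 for PVT1 A_33_P3357748, -0.05 to 0.07 for TUG1 A_22_P00011301 and -0.10 to 0.13 for TUG1 A_19_P00328886. Between the variants they ran from -0.06 to 0.25 for HOTAIR A_21_P0010501, -0.02 to 0.15 for HOTAIR A_21_P0010503 and -0.06 to 0.01 for TUG1 A_19_P00320119. The cause was not tested. Signal over background limits MIAT, with 4 of 6 probes above background on no array.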
